A study of Mus musculus with 18 samples.

Results

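CD34 and the sialomucins related to it were examined at the transcript level in mouse bone marrow stromal cell clones. The members were the 5 genes Cd34, Podxl, Emcn, Cd164 and Cd24a, and they were chosen as every probe set that GEO's platform annotation gives to 1 of these symbols alone. That rule found 10 probe sets among 36701 non-control probe sets of 3 chip types, with 8 on MG_U74Av2, 1 on MG_U74Bv2 and 1 on MG_U74Cv2. The members were thus 5 of 15964 genes that have a probe set of their own. Cd34 had 2 probe sets, Podxl 3, Emcn 3, and Cd164 and Cd24a 1 each.

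The CD34+ group comprised 3 RNAs from stromal clones grown out of CD34+ cells of adult mouse marrow, and the CD34- group comprised 3 RNAs from clones grown out of CD34- cells. All 6 RNAs came from colonies started by single cells and kept in DMEM with 10% fetal bovine serum, and the labels give a purity of 100% for each, estimated by flow cytometry for CD34. Each RNA was read on 1 array of every chip type, so that 18 arrays were compared. The labels give all RNAs of a group the same project sample identifier and name no separate animals, strain, sex or age. The p-values therefore cover the spread among these RNAs alone, and that spread may be technical. Were each group a single clone, clone and CD34 status could differ together and cannot be told apart. Levels are given in intensity units after quantile normalization, and their precision is limited by the number of arrays.

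Sialomucins are surface proteins whose outer part is crowded with sialic acid-capped O-linked sugars. CD34 and podocalyxin (Podxl) are close relatives that bind scaffold proteins through their cytoplasmic tails. They can act as ligands of L-selectin on specialised endothelium and as anti-adhesive spacers elsewhere. Endomucin (Emcn) is a sialomucin of capillary and venous endothelium, endolyn (Cd164) is a widely expressed sialomucin of lysosomes and the cell surface that was described as an adhesion receptor of blood progenitors on stroma, and Cd24a encodes a small lipid-anchored mucin-like protein of B cell precursors, neutrophils, red cell precursors and many epithelia. CD34 is best known from blood progenitors and endothelium, and it is also found on fibroblast-like stromal cells.

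RefSeq promoters, windows of 300 bases around the annotated start (GRCm38.p6), were given for 3 of the 5 genes. All 3 that were given are shown. Cd34 names the groups, Emcn stayed in the lowest part of every array and Cd164 lay near the top of every array, as described below. A link between these stretches and transcript level was not tested. CG pairs are in capitals, and all 3 stretches lie on the plus strand, at chr1:194938571-194938870 for Cd34, chr3:137340828-137341127 for Emcn and chr10:41519250-41519549 for Cd164.
Cd34: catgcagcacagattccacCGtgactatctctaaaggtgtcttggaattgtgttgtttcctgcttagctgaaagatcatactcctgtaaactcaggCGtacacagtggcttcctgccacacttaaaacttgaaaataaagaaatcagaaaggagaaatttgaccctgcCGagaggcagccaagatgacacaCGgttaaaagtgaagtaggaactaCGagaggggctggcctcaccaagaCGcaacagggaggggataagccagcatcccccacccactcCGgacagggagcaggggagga
Emcn: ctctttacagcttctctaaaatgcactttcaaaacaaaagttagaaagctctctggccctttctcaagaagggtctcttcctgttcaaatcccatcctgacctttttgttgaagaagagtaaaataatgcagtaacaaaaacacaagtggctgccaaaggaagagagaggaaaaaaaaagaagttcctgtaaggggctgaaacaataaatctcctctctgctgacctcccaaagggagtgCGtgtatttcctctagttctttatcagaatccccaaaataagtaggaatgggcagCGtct
Cd164: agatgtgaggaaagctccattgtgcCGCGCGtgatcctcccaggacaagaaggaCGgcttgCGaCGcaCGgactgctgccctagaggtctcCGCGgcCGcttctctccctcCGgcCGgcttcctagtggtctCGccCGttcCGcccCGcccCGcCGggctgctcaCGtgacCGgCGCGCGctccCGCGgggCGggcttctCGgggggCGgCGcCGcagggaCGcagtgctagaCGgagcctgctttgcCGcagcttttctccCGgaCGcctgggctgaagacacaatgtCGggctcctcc

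The Cd164 stretch held 36 CG pairs and was 70.0% G or C, a CG count reached by 6.23% of the 32851 promoters of this length. The Cd34 stretch held 7 CG pairs, which is the median of all promoters, and the Emcn stretch held 2. The hexamer GGGCGG, searched on both strands, occurred 4 times in the Cd164 stretch and 0 times in the other two, and 35.7% of all promoters hold it. GGAA, the core of binding sites of ETS factors, was matched 5 times in the Cd34 stretch, 6 times in that of Emcn and 3 times in that of Cd164, and 96.0% of all promoters hold it. GATA was matched 2 times in the Cd34 stretch, 1 time in that of Emcn and 0 times in that of Cd164, and 57.9% of all promoters hold it.

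Cd34 was read first, as a check of the labels and not as a finding. Its probe set 160358_at read 938, 787 and 919 in CD34+ RNAs 1 to 3, against 172, 59.9 and 128 in CD34- RNAs 1 to 3. The other probe set, 97773_at, read 860, 827 and 922 in the CD34+ RNAs, against 85.3, 202 and 105 in the CD34- RNAs. Both probe sets thus separated the groups without overlap, and the transcript followed the surface marker in every RNA. The difference, CD34+ minus CD34-, was 2.50 and 2.39 on the log2 scale, with 95% intervals of 1.93 to 3.07 and 1.86 to 2.92. These and all other log2 differences are of the signal plus an offset, the 20th percentile of the chip type (51.5 on MG_U74Av2), so changes of dim probe sets are understated.

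The position of a probe set on its own array needs no scaling between arrays. Quantile-normalized levels follow from that position, so it is the same reading in other units and no further check. Cd34 lay at the 70.6th to 74.3rd percentile of the CD34+ arrays at 160358_at, against the 22.3rd to 39.4th percentile of the CD34- arrays. At 97773_at it lay at the 71.7th to 74.0th percentile in CD34+ clones, against the 27.8th to 42.5th in CD34- clones. Probe sets were tested where the deposited signal passed the 40th percentile on at least 3 of 6 arrays. Cd34 passed that filter at 160358_at through the 3 CD34+ arrays alone, and at 97773_at through these and CD34- RNA 2.

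**Figure D1:**
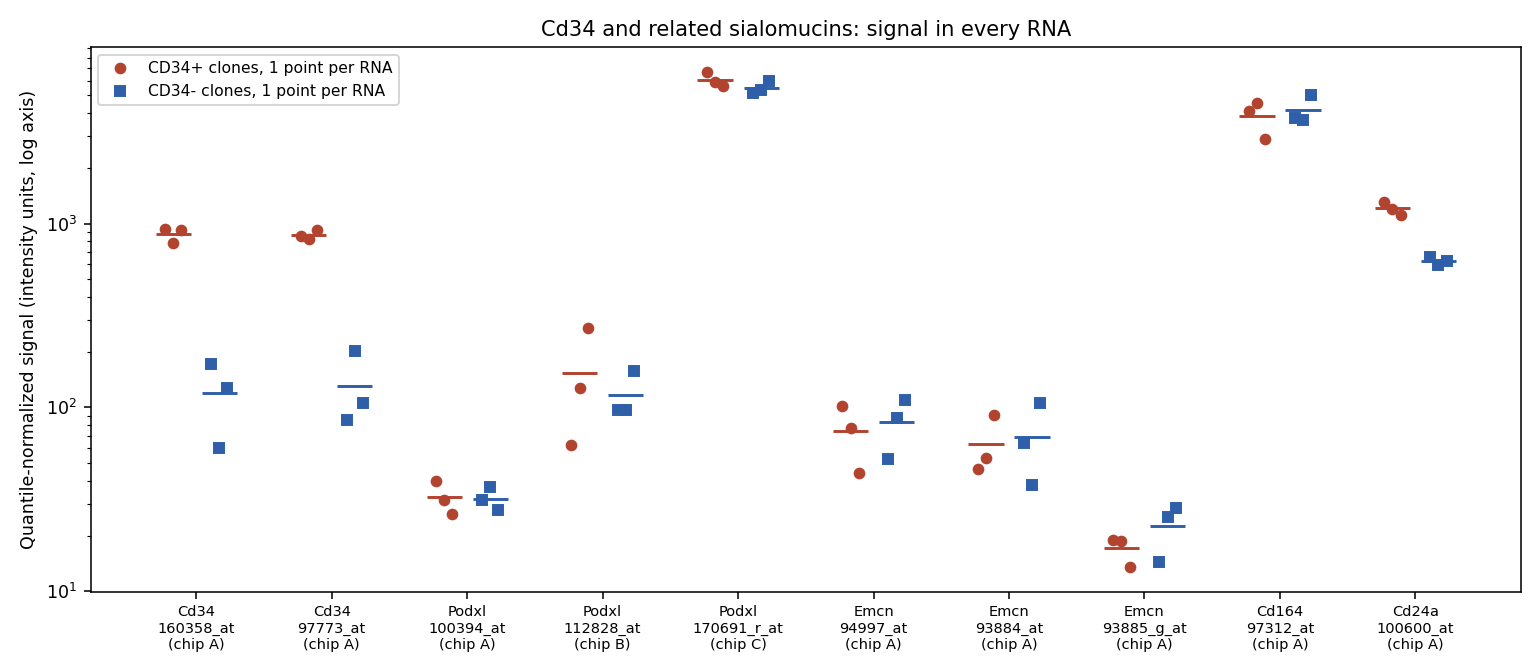
Quantile-normalized signal (intensity units, log axis) of the 10 probe sets of Cd34, Podxl, Emcn, Cd164 and Cd24a, with 1 point per RNA (circles, CD34+ clones; squares, CD34- clones) and a line at the mean of 3 RNAs; chips A, B and C are MG_U74Av2, MG_U74Bv2 and MG_U74Cv2. The groups are apart at both probe sets of Cd34 and at Cd24a, and overlap at the other 7 probe sets.

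Of the 8 probe sets of the other members, 3 passed the filter and were tested, 1 of Cd24a and 1 of Cd164 on MG_U74Av2 and 1 of Podxl on MG_U74Cv2. Only that of Cd24a was called at an adjusted p under 0.05, as higher in CD34+ clones. On MG_U74Av2 14.9% of 7634 tested probe sets were called, 8.21% as higher and 6.69% as lower, so that 1 call among 2 tested probe sets says little of the members as a set. On MG_U74Cv2 0.0936% of 7481 tested probe sets were called.

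Cd24a, the lipid-anchored mucin-like member, was higher in CD34+ clones. It read 1317, 1207 and 1120 in CD34+ RNAs 1 to 3, against 660, 595 and 625 in CD34- RNAs 1 to 3. Every CD34+ RNA lay above every CD34- RNA. The groups did not overlap at 34.5% of the tested probe sets of this chip type. The means were 1214 ± 98.7 in CD34+ clones and 627 ± 32.7 in CD34- clones (SD, n = 3 RNAs each). The log2 difference was 0.90 ± 0.12 (SE, 95% interval 0.62 to 1.17), a 1.86-fold rise (limma adjusted p = 0.00174). In size it ranked 300th among the 7634 tested probe sets.

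Its position on each array, the same reading in other units, was the 77.8th to 80.9th percentile of the CD34+ arrays. On the CD34- arrays it was the 64.5th to 66.8th percentile. An exact two-sided permutation test over the 6 RNAs gave p = 0.1, the smallest that 3 against 3 RNAs allow. Each of the fluidics stations that washed the arrays of this chip type held both groups. Within station 2, with 2 CD34+ and 2 CD34- arrays, the log2 difference was 0.84 (limma adjusted p = 0.0207). Within station 1, with 1 array of each group and no test, Cd24a read 1317 in CD34+ RNA 1, against 625 in CD34- RNA 3. The gene was read by a single probe set, so no further probe set bears on the rise.

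**Figure D2:**
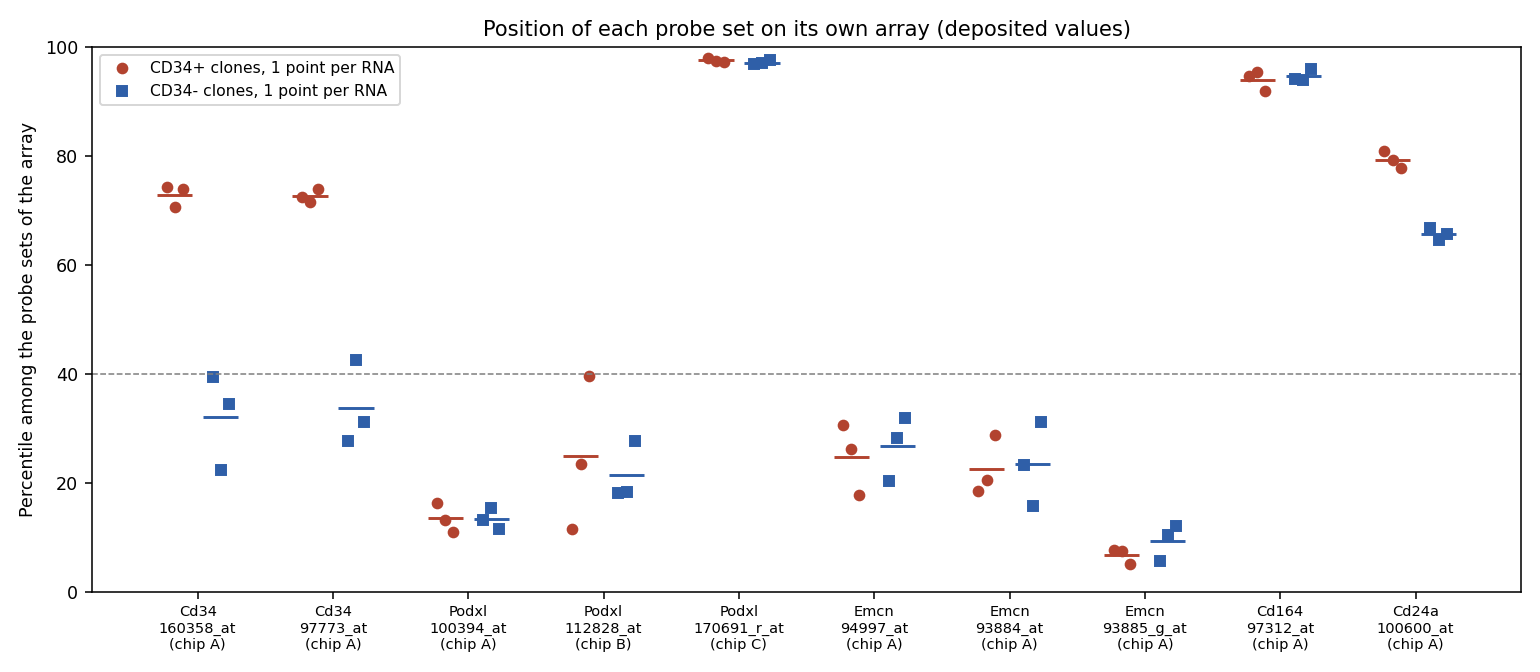
Percentile of each of the 10 probe sets among the non-control probe sets of its own array, from deposited values without scaling, with 1 point per RNA (circles, CD34+ clones; squares, CD34- clones), a line at the mean of 3 and a dashed line at the 40th percentile used by the filter. Cd24a sits at 77.8 to 80.9 on CD34+ arrays and at 64.5 to 66.8 on CD34- arrays, all 3 probe sets of Emcn stay below the dashed line, and 170691_r_at of Podxl lies at 96.9 to 98.0 while its other probe sets lie at 11.1 to 39.6.

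Cd164, the widely expressed sialomucin, was bright in all RNAs and was not called. It read 4098, 4546 and 2875 in CD34+ RNAs 1 to 3, against 3755, 3668 and 4992 in CD34- RNAs 1 to 3. The lowest value and the next to highest were both CD34+ RNAs, so the groups overlapped. The means were 3840 ± 865 in CD34+ clones and 4138 ± 740 in CD34- clones, with a log2 difference of -0.12 ± 0.18 (SE, limma adjusted p = 0.701). The 95% interval, -0.52 to 0.29, leaves room for a moderate difference either way, so that equal levels are not shown. On its array Cd164 lay at the 92.0th to 95.5th percentile in CD34+ clones and at the 94.1st to 96.0th percentile in CD34- clones.

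Podxl, the closest relative of Cd34 among the members, gave readings that disagreed in brightness between probe sets. On MG_U74Av2, probe set 100394_at read 39.96, 31.2 and 26.4 in the CD34+ RNAs, against 31.3, 36.8 and 27.7 in the CD34- RNAs. On MG_U74Bv2, 112828_at read 62.7, 128 and 269 in the CD34+ RNAs, against 96.4, 97.1 and 157 in the CD34- RNAs. Both stayed below the filter on all 6 arrays and were not tested, with untested log2 differences of 0.01 and 0.15.

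On MG_U74Cv2, by contrast, Podxl's probe set 170691_r_at read 6671, 5885 and 5619 in the CD34+ RNAs, against 5108, 5319 and 5985 in the CD34- RNAs. The groups overlapped there, with a log2 difference of 0.14 ± 0.15 (SE, 95% interval -0.19 to 0.48, limma adjusted p = 0.850). This probe set lay at the 97.4th to 98.0th percentile of the CD34+ arrays and the 96.9th to 97.6th percentile of the CD34- arrays, whereas 100394_at lay at the 11.1th to 16.4th percentile of the CD34+ arrays and the 11.6th to 15.3rd percentile of the CD34- arrays. Whether the bright probe set reads Podxl alone was not tested, and these data give no settled level for the gene. No probe set of Podxl followed the difference seen for Cd34.

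Emcn, the endothelial member, was dim in every RNA at each of its 3 probe sets. Probe set 94997_at read 101, 77.1 and 43.9 in the CD34+ RNAs, against 52.5, 87.8 and 110 in the CD34- RNAs. At 93884_at the values were 46.4, 53.2 and 90.7 in the CD34+ RNAs, against 63.8, 38.1 and 105 in the CD34- RNAs. At 93885_g_at, which is annotated to the same sequence record as 93884_at, they were 19.1, 18.7 and 13.5 in the CD34+ RNAs, against 14.5, 25.2 and 28.5 in the CD34- RNAs. The groups overlapped at all 3, and none passed the filter on any array. The untested log2 differences were -0.11, -0.05 and -0.11. Low signals of this kind do not show that the transcript was absent.

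**Figure D3:**
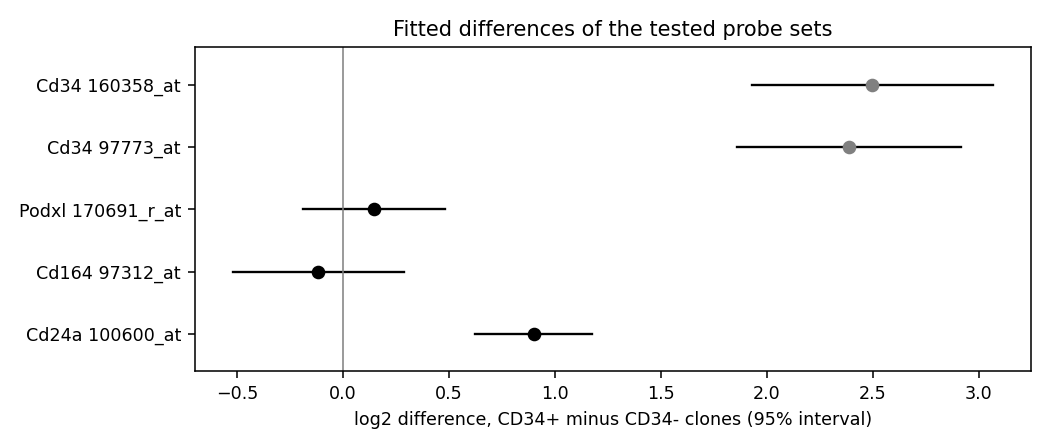
Log2 difference, CD34+ minus CD34- clones, of the 5 tested probe sets with its 95% interval from the fit across all probe sets of the chip type (grey points, Cd34, which names the groups). The interval of Cd24a runs from 0.62 to 1.17, and those of Podxl and Cd164 include 0.

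The genes most like each tested member over the 6 arrays of its chip type were found by Pearson correlation of log2 values, as a description of points that share 2 groups and their normalization. For Cd34 at 160358_at these were Ect2, an exchange factor of cytokinesis (r = 0.997), Ankrd1, an ankyrin repeat protein (r = 0.996), and Cox16, an assembly factor of cytochrome c oxidase (r = 0.996). For Cd24a they were Tnnt2, the troponin T of heart muscle (r = 0.999), Tmsb10, an actin monomer-binding thymosin (r = 0.997), and Ppp1r14b, an inhibitor of protein phosphatase 1 (r = 0.997). Tnnt2 read 594 in CD34+ clones and 354 in CD34- clones. Tmsb10 read 25740 in CD34+ clones and 23385 in CD34- clones, a difference that was not called (limma adjusted p = 0.115). Pearson correlation takes no account of the size of a change. In all, 231 probe sets of other genes passed r = 0.95 with Cd34 and 220 with Cd24a, of 6882 and 6883 compared. For Cd164 the same count was 9, led by the actin-severing Gsn (r = 0.978), Ets1 (r = 0.973) and Gatad2a (r = 0.972). For Podxl at 170691_r_at it was 7 of 5056, led by Sec61a2 (r = 0.991), Dock9 (r = 0.990) and Serbp1 (r = 0.978). The other probe set of Cd34 had r = 0.898 with the first.

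Other mucin-like surface glycoproteins moved in both directions. Of 20 listed, 14 were tested, with 1 probe set per gene, of which 1 rose and 3 fell in CD34+ clones and 10 missed the threshold, with a median log2 difference of -0.04. Over all 11969 genes so tested 7.9% were called, 4.39% as higher and 3.51% as lower. That share pools chip types, with 14.9% of tested probe sets called on MG_U74Av2, 84 of 7737 on MG_U74Bv2 and 0.0936% on MG_U74Cv2. Most listed genes were read on MG_U74Av2, so the pooled share is a low yardstick for the lists. Pdpn, podoplanin, a mucin-type sialoglycoprotein of lymphatic endothelium and fibroblasts, was the one that rose, with 1303 ± 89.8 in CD34+ clones and 511 ± 14.6 in CD34- clones (log2 1.27, limma adjusted p = 0.000275). Muc1, a transmembrane mucin of epithelia, fell to 175 ± 47.9 in CD34+ clones, against 453 ± 38.0 in CD34- clones (log2 -1.18, limma adjusted p = 0.00548).

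Tmem123, a mucin-like receptor also called porimin, fell to 2669 ± 117 in CD34+ clones, against 4888 ± 175 in CD34- clones (log2 -0.86, limma adjusted p = 0.000374). Cx3cl1, a chemokine borne on a mucin stalk, fell by 0.91 on the log2 scale (limma adjusted p = 0.00459). A second probe set of Cx3cl1 on MG_U74Av2 differed by -0.04 (limma adjusted p = 0.970) and 1 on MG_U74Bv2 by -0.98 (limma adjusted p = 0.137), so the call of that gene rests on 1 probe set. Pdpn, Muc1, Tmem123 and Cx3cl1 each kept the call when any 1 RNA was left out. Podxl2, endoglycan, the remaining relative in the Cd34 family, did not pass the filter.

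Among ligands, receptors and cytoplasmic partners of these proteins, 10 of 15 listed were tested. Of these 2 were higher in CD34+ clones, 3 lower and 5 short of the threshold (median log2 difference 0.08). Over all genes, pooled over chip types, 4.39% were called as higher and 3.51% as lower. On MG_U74Av2, where most of these partners were read, the shares were 8.21% and 6.69% of tested probe sets. Slc9a3r1, the scaffold protein NHERF1 that binds the tail of podocalyxin, rose with 2234 ± 168 in CD34+ clones and 1429 ± 219 in CD34- clones (log2 0.63, limma adjusted p = 0.0129). Ezr, ezrin, which ties such scaffolds to actin, fell to 1138 ± 40.7 in CD34+ clones, against 1712 ± 180 in CD34- clones (log2 -0.56, limma adjusted p = 0.0121). Msn, moesin, a close relative of ezrin, rose by 0.31 on the log2 scale (limma adjusted p = 0.0467).

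Each of these 3 calls was lost when certain single RNAs were left out. Leaving out CD34+ RNA 3 ended the call of Slc9a3r1 (limma adjusted p = 0.0553). Ezr was not called without CD34+ RNA 2 or CD34- RNA 1 (adjusted p up to 0.0572) and Msn not without CD34+ RNA 1, CD34+ RNA 2, CD34- RNA 1 or CD34- RNA 3 (up to 0.169). Msn was also not called with arrays scaled to a common trimmed mean (adjusted p = 0.190) or median (0.209), without a variance trend (0.152) or with the station as a block (0.0685). A further probe set of Ezr on MG_U74Cv2 differed by -0.96 (limma adjusted p = 0.562).

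Cxcl12, the chemokine whose receptor CXCR4 associates with Cd164, fell to 2208 ± 322 in CD34+ clones, against 4642 ± 311 in CD34- clones (log2 -1.06, limma adjusted p = 0.000727). Further probe sets on MG_U74Av2 fell by 1.62 and 1.27 on the log2 scale, and 1 on MG_U74Bv2 differed by 0.09 (limma adjusted p = 0.846). Fyn, a Src family kinase linked to CD24 signalling, fell by 0.69 (limma adjusted p = 0.00932), and a further probe set on MG_U74Cv2 differed by -0.20 (limma adjusted p = 0.951). Cxcr4 itself and Selp and Sele, the P- and E-selectins, did not pass the filter.

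Of 43 listed enzymes that build mucin-type O-glycans and add sialic acid, 33 were tested, of which 1 rose, 1 fell and 31 missed the threshold, with a median log2 difference of 0.01. Over all genes 7.9% were called, and 14.9% of tested probe sets on MG_U74Av2, where most of these enzymes were read. At an unadjusted p under 0.05 limma gave 5 as higher and 1 as lower. At that cut 2233 of 7634 tested probe sets passed on MG_U74Av2, 1268 of 7737 on MG_U74Bv2 and 661 of 7481 on MG_U74Cv2. These counts therefore say little of the enzymes as a set. Cmas, which activates sialic acid for transfer, rose with 1345 ± 144 in CD34+ clones and 791 ± 92.5 in CD34- clones (log2 0.73, limma adjusted p = 0.00761), and a further probe set on MG_U74Cv2 differed by 0.19 (limma adjusted p = 0.844). St6galnac2, a sialyltransferase of O-glycans, fell to 238 ± 44.2 in CD34+ clones, against 422 ± 56.8 in CD34- clones (log2 -0.71, limma adjusted p = 0.0352), and lost its call without CD34+ RNA 2, CD34+ RNA 3, CD34- RNA 1 or CD34- RNA 2 (up to 0.122) or with the station as a block (0.0533).

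**Figure D4:**
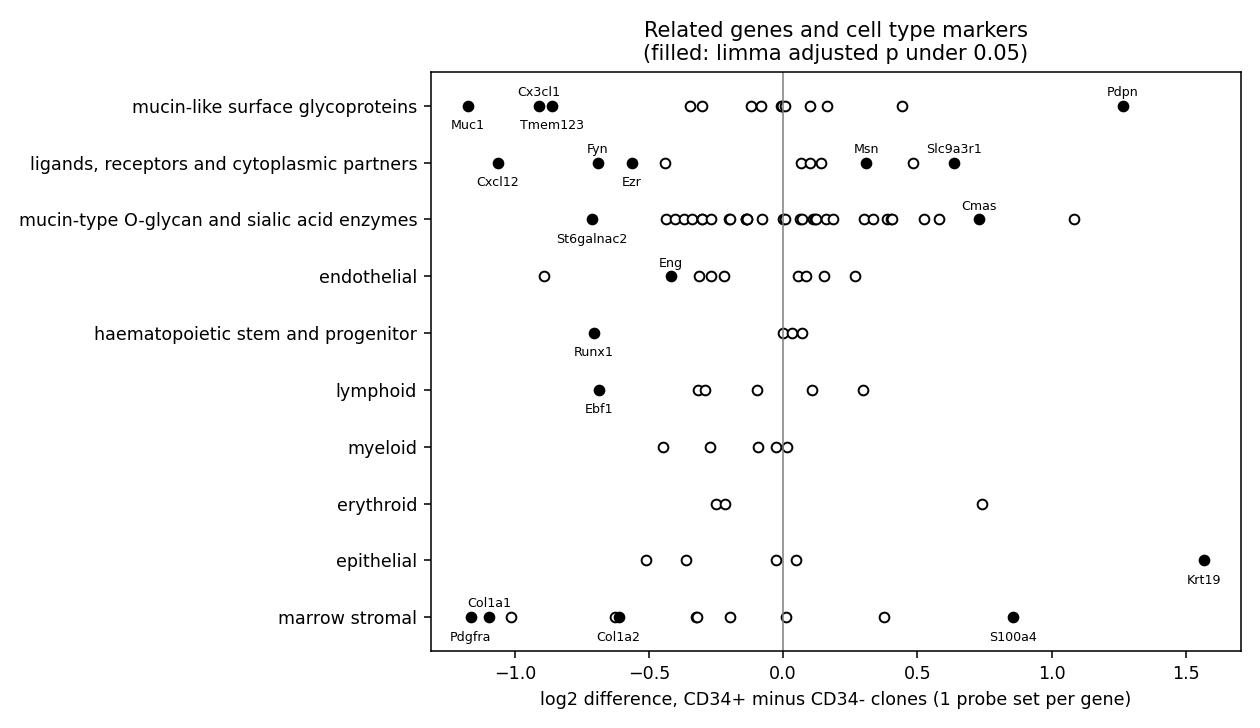
Log2 difference, CD34+ minus CD34- clones, of the tested genes of 3 lists related to the sialomucins and 7 lists of cell type markers, with 1 probe set per gene (filled and named, limma adjusted p under 0.05). Pdpn (1.27) stands against Muc1, Cx3cl1 and Tmem123 (-1.18, -0.91 and -0.86) among mucin-like glycoproteins.

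Because Cd34, Emcn and Cd24a mark blood, endothelial or epithelial cells in marrow and elsewhere, the markers of those cells were read on the same RNAs. Of 19 endothelial markers on the arrays 9 passed the filter, and Cdh5, Kdr, Tek, Tie1 and Vwf did not. The summed signal of those tested was 9248 to 10610 in CD34+ clones and 10252 to 13134 in CD34- clones. This and the sums below add signals of different probe sets, also across chip types normalized apart. They follow the brightest probe sets and do not measure the amount of a cell type. By limma 0 of the 9 rose, which with 4.39% of all genes called as higher says little of these markers. At an unadjusted p under 0.05 limma gave 0 as higher and 2 as lower, Eng and Pecam1 (log2 -0.89, limma adjusted p = 0.0854). At that cut 2233 of 7634 tested probe sets on MG_U74Av2 passed in either direction. Eng, endoglin, which stromal cells also carry, fell by 0.42 on the log2 scale (limma adjusted p = 0.0242, and up to 0.102 without CD34+ RNA 1, CD34+ RNA 2 or CD34- RNA 1). With arrays scaled to a common median Eng had an adjusted p of 0.0751, and without a variance trend 0.0768. A further probe set of Eng on MG_U74Bv2 differed by -0.76 (limma adjusted p = 0.0986). Of 11 markers of blood stem and progenitor cells 4 passed the filter, and Ptprc, the pan-leukocyte CD45, and Kit did not. Their summed signal was 1759 to 1942 in CD34+ clones and 1911 to 2103 in CD34- clones. Runx1 fell by 0.71 (limma adjusted p = 0.0470), a call kept in 1 of 6 leave-outs and lost with the station as a block (0.0567) or with arrays scaled to a common median (0.0506). A further probe set of Runx1 on MG_U74Bv2 differed by -0.46 (limma adjusted p = 0.350).

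Of the other cell types that carry Cd24a, lymphoid markers passed the filter for 6 of 10 genes on the arrays, myeloid markers for 5 of 13 and erythroid markers for 3 of 5. Summed signals were 1692 to 1970 in CD34+ clones and 2082 to 2333 in CD34- clones for the lymphoid list, 3325 to 3838 in CD34+ clones and 3283 to 4621 in CD34- clones for the myeloid list, and 793 to 1105 in CD34+ clones and 573 to 1080 in CD34- clones for the erythroid list. By limma 0 of these 14 tested genes rose, which with 4.39% of all genes called as higher says little of these markers. At an unadjusted p under 0.05 limma gave 0 as higher and Ebf1 alone as lower. At that cut 2233 of 7634 tested probe sets on MG_U74Av2 passed in either direction. Ebf1 fell by 0.69 (limma adjusted p = 0.0147). Without CD34+ RNA 2 or CD34- RNA 1 Ebf1 had an adjusted p up to 0.0622, and further probe sets differed by -1.63 and -0.19 on MG_U74Bv2 (limma adjusted p = 0.0810 and 0.739) and by 0.49 on MG_U74Cv2 (limma adjusted p = 0.844).

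Of 10 epithelial markers 5 passed the filter, with summed signals of 10789 to 12044 in CD34+ clones and 10006 to 11312 in CD34- clones. That sum pools opposite differences. Krt19 on MG_U74Av2 read 4114 in CD34+ clones and 1352 in CD34- clones. On MG_U74Cv2 Epcam read 3030 in CD34+ clones and 3931 in CD34- clones, and Elf3 2996 and 4275. Krt19, an epithelial keratin, had a log2 difference of 1.57 and was higher in the same group as Cd24a (limma adjusted p = 6.67e-05). Cdh1, E-cadherin, differed by 0.05 (limma adjusted p = 0.856) and Epcam by -0.36 (limma adjusted p = 0.627). Elf3 differed by -0.51 (limma adjusted p = 0.458) and Cldn4 by -0.03 (limma adjusted p = 0.967). Krt8 and Krt18 did not pass the filter. The part of Krt19-bearing cells in the rise of Cd24a was not tested. In such bulk RNA, fewer cells of a type and less RNA per cell cannot be told apart.

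The probe sets of marrow stroma markers ranged from bright to dim. Col1a1, a chain of type I collagen, read 19937 ± 1771 in CD34+ clones and 42615 ± 2455 in CD34- clones. Vim, vimentin, read 212 ± 84.6 in CD34+ clones and 166 ± 104 in CD34- clones. Nt5e, the surface enzyme CD73, read 146 ± 44.7 in CD34+ clones and 173 ± 30.7 in CD34- clones. Whether the dim probe sets of Vim and Nt5e read these transcripts well was not tested. Their low signals give no settled level for either gene. Of 13 stromal markers on the arrays 11 were tested, and Thy1 and Lepr did not pass the filter. Of the 11 tested, 1 rose, 3 fell and 7 missed the threshold, with a median log2 difference of -0.33. Over all genes 7.9% were called, and 14.9% of tested probe sets on MG_U74Av2, where most of these markers were read. Col1a1, Col1a2 and Pdgfra fell (log2 -1.10, -0.61 and -1.16, limma adjusted p = 8.05e-05, 0.000205 and 0.00108). S100a4 rose (log2 0.86, limma adjusted p = 0.000107). Further probe sets of Col1a2 and Pdgfra differed by -0.34 and -0.46 and were not called (limma adjusted p = 0.343 and 0.664). The ratio of 3' to 5' signal of Gapdh, a sign of RNA quality, moved with the groups on MG_U74Av2, where Cd34 and Cd24a were read. It was 0.700 to 0.771 in CD34+ RNAs, against 0.802 to 0.832 in CD34- RNAs. The ratio of actin separated the groups there too, at 1.032 to 1.093 in CD34+ RNAs, against 1.098 to 1.198 in CD34- RNAs. For the same RNAs the Gapdh ratios overlapped on MG_U74Bv2 (0.775 to 0.825 in CD34+ and 0.750 to 0.819 in CD34- RNAs) and on MG_U74Cv2 (0.764 to 0.787 in CD34+ and 0.730 to 0.811 in CD34- RNAs). The actin ratios overlapped on MG_U74Bv2 and not on MG_U74Cv2. RNA concentrations in the labels were 0.421 to 0.721 µg/µl in CD34+ RNAs, against 0.989 to 1.38 µg/µl in CD34- RNAs. The part of RNA quality in the rise of Cd24a was not tested.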

How the data were processed

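Per the submitters' processing notes, the authors made the deposited intensity of each probe set, a linear signal, with MAS5 (version not given in the sources used here). The CD34+ arrays shared a trimmed mean (2% cut at each end) of 1500 to 1501, and the CD34- arrays lay below it by 14.1 to 120-fold depending on chip type, so deposited levels of the groups were not comparable. The 66 controls of each chip type were removed and its 6 arrays quantile normalized. The 20th percentile was added before log2 (51.5, 106 and 97.9 on MG_U74Av2, MG_U74Bv2 and MG_U74Cv2). Probe sets above the 40th percentile of their own array on at least 3 of 6 arrays were tested (7634, 7737 and 7481).

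Each chip type was fitted whole with limma 3.58.1 in R 4.3.3 (lmFit, eBayes with an intensity trend), CD34+ minus CD34-, with two-sided p-values and Benjamini-Hochberg adjustment over all probe sets tested on that chip type. The fit was tested on simulated data. Array precision is limited by the number of arrays, as arrays have no read depth. Groups and replicate numbers came from the sample titles. Nothing in the labels says that equal replicate numbers pair the RNAs, and they were not taken as pairs.

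Members and lists were chosen with earlier results of these data known. Named genes were all members, the called genes of each list (all, as each list had 5 or fewer) and, per tested member, the 3 genes of most similar pattern. Cdh1, Epcam, Elf3, Cldn4, Pecam1, Vim, Nt5e and the listed genes named as not passing the filter were named after their values were seen. A listed gene was represented by its brightest tested probe set on the first chip type holding one. Promoters came from RefSeq (GRCm38.p6). Fluidics stations were read from the experiment files.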

Additional observations from a re-analysis of the deposited data

How the results depend on the processing

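Cd24a kept its direction and its call under every alternative run with arrays scaled to each other, with log2 differences of 0.79 to 0.95, and with the deposited values as they stood (4.65, where the median of all tested probe sets was itself shifted by 3.70). Cd34 likewise kept its direction. Left-out RNAs moved Cd24a between 0.84 and 0.95, Cd34 between 2.22 and 2.72 at 160358_at and between 2.21 and 2.65 at 97773_at, and Podxl at 170691_r_at between 0.07 and 0.21. Cd164 was called under no alternative with scaled arrays. Its sign changed with the RNA left out, from -0.25 to 0.07, at 0.074 without CD34+ RNA 3 and 0.02 without CD34- RNA 3. It read 3.85 with no scaling, as all probe sets were then shifted. Podxl differed by -0.067 with arrays scaled to a common median and by 6.67 with no scaling, where the median shift was 6.30. With no filter, the dim probe sets of Podxl and Emcn were tested and not called (limma adjusted p 0.691 to 0.982).

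The number of probe sets called was 1138 on MG_U74Av2, 84 on MG_U74Bv2 and 7 on MG_U74Cv2. With no scaling it was 7630, 7737 and 7481. Without 1 RNA it was 634 to 1230, 2 to 98 and 0 to 1. The count moved by over 1.5 times without CD34- RNA 1 or any CD34+ RNA on MG_U74Av2 (634 to 740), without any RNA but CD34- RNA 2 on MG_U74Bv2 (2 to 54) and without any RNA on MG_U74Cv2 (497 to 772 at an unadjusted p under 0.05). On MG_U74Bv2 37 were called without a filter, 16 without a variance trend, 1 with the station as a block and 3 within station 1. On MG_U74Cv2 2 were called with the offset at the 5th percentile, 1 within station 1, and 0 by limma without a filter (899 at an unadjusted p under 0.05), without a variance trend (595), with the station block (471) or with the replicate block (657). Deviations of RNAs with the same number correlated at -0.05 to 0.07, so the numbers were not taken as pairs. With the replicate block 956, 57 and 0 probe sets were called and Cd24a had an adjusted p of 0.00518. Station 2 held 0 CD34+ arrays on MG_U74Bv2 and MG_U74Cv2, so it gave no value there. Of 19 called list genes, 18 kept the call with trimmed mean scaling, 16 with median scaling, 17 without a variance trend, 16 with the station block and 17 with the replicate block, which ended the calls of Msn (adjusted p = 0.0601) and Runx1 (0.0822). The causes of these changes were not tested, beyond the shift that the unscaled values carry.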
